A study of Mus musculus with 24 samples.

Results

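H1.0 is a linker histone, encoded in the mouse by H1f0, and the data described here are its CUT&RUN peak lists from fibroblasts at day 1 of cardiac induction, set against lists from the same cells in their ground state. The members were chosen by antibody and state: 4 H1.0 lists, 2 per state, of the 24 samples in the series, with peaks on chromosomes 1 to 19 and X. CUT&RUN tethers a nuclease to an antibody, so that DNA near the bound protein is released and sequenced. All 4 samples came from iMGT-Myh6-eGFP-MEF, a line of mouse embryonic fibroblasts with doxycycline-inducible Mef2c, Gata4 and Tbx5 (MGT) and an eGFP reporter of Myh6.

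Day 1 samples had received siControl, a control siRNA, at 300000 plated cells per well, and 1 µg/mL doxycycline on the following day in induction medium. They were collected at day 1 after MGT induction. Ground-state samples were not reprogrammed and carry no treatment in the labels, although their library names contain siControl, so whether they were transfected is not clear. Doxycycline, and medium and transfection where they differed, cannot be told apart from the induced factors. Per the labels, cells of both states were frozen before use, and about 250000 cells entered each reaction. Each list came from 1 sample. No label says what was repeated between biological replicates, and a p-value here may reflect technical spread alone. The lists hold no RNA, so fibroblast and cardiomyocyte markers were not checked.

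Linker histones bind where DNA enters and leaves the nucleosome and help to compact the chromatin fibre. H1.0 is the replication-independent subtype, made outside S phase and best known from cells that have slowed division or differentiated. Expressing Mef2c, Gata4 and Tbx5 together is a known way of turning fibroblasts into cardiomyocyte-like cells, a process that starts from closed cardiac genes and open fibroblast genes.

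The lists fall into 2 name series, and this division comes before any result. A day 1 list and a ground-state list have names that start with M, here the M series, and the other pair do not, here the plain series. What the M stands for is not given in the sources used here. Day 1 replicate 2 and ground-state replicate 1 form the M series, while day 1 replicate 1 and ground-state replicate 2 form the plain series. Plain lists covered at least 911 Mb each and M lists at most 92.9 Mb. Every comparison is therefore given within each series, and where lists had to be of like size, the peaks with the highest maximum signal were kept until the lists covered the same length.

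A few promoters that were particular to a state are printed first, to show the sequence behind such a difference. They lay whole within both lists of a single state and outside both lists of the other, after all 4 lists had been reduced to 28.5 Mb. Each window runs from 250 bases before to 50 after a RefSeq start site on GRCm38.p6, the assembly of mm10, and is written 5′ to 3′ on the gene's strand with every CpG in capitals. Acta2 (chr19:34255324-34255623, minus strand) encodes smooth muscle actin, a marker of activated fibroblasts. It is shown as the single gene of the tissue and pathway lists among the day 1 promoters, although it was among those of the lowest peak rank in that set. Zfp959 (chr17:55891843-55892142, plus strand), a zinc finger gene, and Med11 (chr11:70451668-70451967, plus strand), a Mediator subunit, were the strongest at day 1. Gm2427 (chr1:85496180-85496479, plus strand), a predicted gene, shared the highest peak rank in the ground state with Mpp4, which is not printed. In full lists the plain day 1 list covered the Mpp4 window over 100%. Lipt1 (chr1:37871969-37872268, plus strand), a lipoyltransferase, and Rps27l (chr9:66945836-66946135, plus strand), a relative of a ribosomal protein, were ground-state promoters of genes whose bodies were lower at day 1 in every version of the lists. Their windows lie inside those gene bodies, so promoter and body values rest in part on the same peaks. A body lower at equal length must stay lower when the ground-state lists, the longer of each series, are used in full. Rps27l was among those of the lowest peak rank in the ground-state set.
Acta2: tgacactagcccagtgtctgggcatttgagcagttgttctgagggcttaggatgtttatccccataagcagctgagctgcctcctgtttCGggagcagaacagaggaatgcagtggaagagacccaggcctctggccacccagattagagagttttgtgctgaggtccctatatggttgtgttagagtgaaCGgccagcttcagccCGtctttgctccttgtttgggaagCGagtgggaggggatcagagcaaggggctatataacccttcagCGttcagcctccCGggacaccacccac
Zfp959: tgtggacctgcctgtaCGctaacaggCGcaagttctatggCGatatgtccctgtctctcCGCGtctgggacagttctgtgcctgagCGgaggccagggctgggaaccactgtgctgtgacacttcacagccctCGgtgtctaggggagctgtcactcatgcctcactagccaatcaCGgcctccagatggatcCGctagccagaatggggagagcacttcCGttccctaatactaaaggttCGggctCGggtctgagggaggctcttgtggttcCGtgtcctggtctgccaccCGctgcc
Med11: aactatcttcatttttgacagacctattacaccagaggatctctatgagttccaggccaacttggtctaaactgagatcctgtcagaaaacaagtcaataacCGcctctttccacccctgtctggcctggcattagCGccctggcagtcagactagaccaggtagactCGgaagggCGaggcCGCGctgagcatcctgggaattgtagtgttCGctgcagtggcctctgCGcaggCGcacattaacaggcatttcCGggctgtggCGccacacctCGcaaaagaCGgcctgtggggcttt
Gm2427: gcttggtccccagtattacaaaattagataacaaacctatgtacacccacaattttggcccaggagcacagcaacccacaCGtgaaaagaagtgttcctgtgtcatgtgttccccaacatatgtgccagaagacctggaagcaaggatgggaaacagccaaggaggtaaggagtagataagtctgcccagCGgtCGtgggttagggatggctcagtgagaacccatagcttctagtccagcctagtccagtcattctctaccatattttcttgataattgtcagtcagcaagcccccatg
Lipt1: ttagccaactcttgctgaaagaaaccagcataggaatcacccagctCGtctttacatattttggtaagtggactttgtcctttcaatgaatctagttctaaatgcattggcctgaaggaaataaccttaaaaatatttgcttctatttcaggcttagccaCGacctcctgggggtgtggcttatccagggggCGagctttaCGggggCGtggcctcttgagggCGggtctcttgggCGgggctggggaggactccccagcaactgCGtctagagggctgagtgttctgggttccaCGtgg
Rps27l: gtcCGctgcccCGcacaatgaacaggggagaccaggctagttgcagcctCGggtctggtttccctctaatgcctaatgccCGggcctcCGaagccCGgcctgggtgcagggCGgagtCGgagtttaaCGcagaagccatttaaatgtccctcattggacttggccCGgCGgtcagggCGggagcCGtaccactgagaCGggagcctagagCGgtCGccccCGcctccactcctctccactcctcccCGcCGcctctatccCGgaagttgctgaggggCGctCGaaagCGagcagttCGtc

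In full lists most of these windows also lay in the plain list of the other state. The plain ground-state list covered those of Acta2, Zfp959 and Med11 over 100%, and the plain day 1 list covered that of Lipt1 over 100% and that of Rps27l over 43.7%. Gm2427 alone of the 6 stayed at 0% in both lists of the other state.

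The windows differed widely in CpG content. Acta2 held 6 CpGs, Zfp959 14, Med11 13, Gm2427 3, Lipt1 9 and Rps27l 24. None held TGANTCA, the core of the AP-1 site, or a match without mismatch to the MEF2 or CArG box pattern, searched on both strands. The Acta2 promoter is known for CArG elements that respond to serum response factor, and the strict pattern does not pick up elements that differ from it by a base. The search therefore does not show that a window lacks such sites.

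Less sequence lay in H1.0 peaks at day 1 than in the ground state in both series, the peaks were narrower, and their maxima were lower. Covered sequence was 28.5 Mb at day 1 and 92.9 Mb in the ground state in the M series. It was 911 Mb at day 1 and 1109 Mb in the ground state in the plain series. The ratios of day 1 to ground state were 0.307 and 0.821. The series stood much further apart than the states did.

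Peak width and height kept their direction across the series. The median peak was 824 bp wide at day 1 and 1001 bp in the ground state in the M series, against 969 bp at day 1 and 1881 bp in the ground state in the plain series. Over each state the median width averaged 896.5 ± 103 bp at day 1 and 1441 ± 622 bp in the ground state (SD, n = 2 each), and the exact two-sided permutation test gave p = 0.33, the smallest that 2 against 2 samples allow. The median maximum signal was 5 at day 1 and 6 in the ground state in the M series, and 6 at day 1 and 8 in the ground state in the plain series. Its highest value was 101 at day 1 and 205 in the ground state in the M series, and 150 at day 1 and 415 in the ground state in the plain series. These signals are the authors' peak scores and are not scaled to depth, so how far sequencing depth or enrichment set them was not tested.

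The number of peaks went opposite ways. There were 32912 peaks at day 1 and 85700 in the ground state in the M series, but 722039 at day 1 and 412687 in the ground state in the plain series. In the plain series, wide ground-state peaks often met several day 1 peaks: 29.5% of ground-state peaks met 2 or more peaks of the day 1 list, and at most 40. The reverse held for 3.76% of day 1 peaks. Covered length had an exact permutation p of 0.667 and peak number a p of 1, and all 7 such tests had a Benjamini-Hochberg adjusted p of 1.

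**Figure D1:**
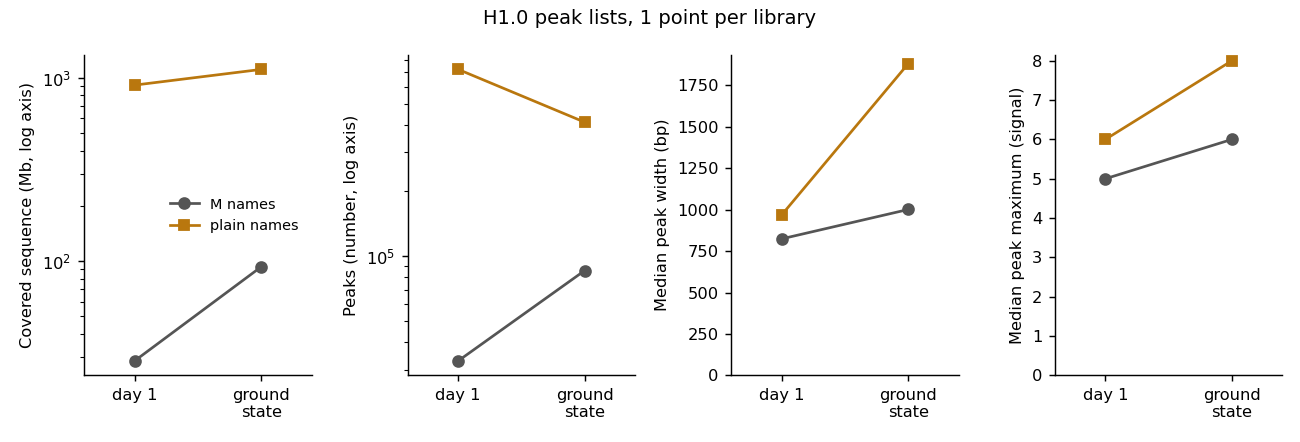
Covered sequence (Mb, log axis), number of peaks (log axis), median peak width (bp) and median peak maximum (signal) of the 4 H1.0 lists; each point is 1 library and lines join the day 1 and ground-state libraries of a name series. Covered sequence, width and maximum were lower at day 1 in both series, while peak number was lower in the M series and higher in the plain series.

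At equal length, lists of a name series overlapped more than lists of a state. Of the M day 1 list, 11.6% lay in the M ground-state list and 9.26% in the plain day 1 list. Of the plain day 1 list, 23.5% lay in the plain ground-state list. Of the M ground-state list, 11.6% lay in the plain day 1 list and 4.98% in the plain ground-state list. Of the 97.8 Mb in any list, all 4 lists held 0.260 Mb.

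Sequence particular to a state was small beside the sequence particular to a series. Both day 1 lists but no ground-state list held 1.13 Mb in 1770 regions, and both ground-state lists but no day 1 list held 0.511 Mb in 795 regions. Pairs from the same series held more: 2.15 Mb lay in the M lists alone and 5.45 Mb in the plain lists alone. Pairs that shared neither state nor series held 1.76 Mb (M ground state and plain day 1) and 0.718 Mb (M day 1 and plain ground state). The day 1 value lay between these, and the ground-state value lay below both. The day 1 excess over the ground state turned round in the full lists, where 4.02 Mb was in day 1 alone and 15.0 Mb in the ground state alone.

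The strongest day 1 regions lay mostly outside genes, several of them at the centromere-proximal ends of the assembled chromosomes. The strongest was at chr7:64073403-64076503, 54.4 kb from the predicted gene Gm45988, with maxima of 46 and 37 in the plain and M day 1 lists. The next were chr3:3000185-3005372, with maxima of 30 and 27, and chr17:3014325-3015646, with maxima of 38 and 23. Another lay at chr3:3028923-3030742. The last of the 5, chr7:141637539-141639825, lay in Muc6, which encodes a gastric mucin, and had maxima of 20 and 13.

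The 5 day 1 regions were 1322 to 5188 bp wide and the 5 strongest ground-state regions 521 to 1920 bp. The first 3 of the ground state were chr2:22740799-22741436, 14.5 kb from Apbb1ip, with maxima of 63 and 95 in the M and plain ground-state lists, chr16:10973634-10974172 in Litaf, with maxima of 46 and 250, and chr5:142889773-142890293 in Fbxl18, with maxima of 52 and 63. Litaf encodes a regulator of endosomal sorting. The other 2 were chr1:45944968-45945540, 18.4 kb from the iron exporter gene Slc40a1, and chr7:12010333-12012252, 29.0 kb from Vmn1r77. The table of genes gives no exons, so parts of a gene were not told apart.

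The start of chromosome 3 stood out at coarser scale too. Its first 500 kb of assembled sequence, which holds no protein-coding gene, was covered over 5.41% at day 1 and 1.57% in the ground state in the M series, and over 5.26% at day 1 and 1.16% in the ground state in the plain series at equal length. The bin holds both chromosome 3 regions named above, so its values count some of the same peaks again. It was higher at day 1 in both series in all 3 versions of the lists. This was not general: at equal length, 4 of 20 such first bins were higher at day 1 in both series and 3 were lower in both. Of all 5131 bins, 1202 were higher at day 1 in both series and 506 lower in both. How reads from repeats near the centromere were placed is not given in the sources used here.

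Some of the bins with the largest decreases at day 1 held clusters of close paralogues. At 85000001 to 85500000 on chromosome 1, a cluster of predicted genes that includes Gm2427, coverage was 18.9% at day 1 and 29.2% in the ground state in the M series, and 50.7% at day 1 and 59.6% in the ground state in the plain series, with equal length within each series. The Gm2427 promoter printed above was at 0% in both day 1 lists and 100% in both ground-state lists even at full length. Zinc finger genes clustered at 145510759 to 147849126 on chromosome 4 averaged 11.4% at day 1 and 22.2% in the ground state in the M series, and 56.7% at day 1 and 66.8% in the ground state in the plain series. Of those 17 genes, 9 were lower at day 1 in both series, against 4.38% of all genes. None was higher in both, against 15.5% of all genes. By the 10-point rule given below, 4 were called lower, against 0.521% of all genes. At 28.5 Mb per list, 5 were lower in both series and 3 were called, against 1.66% and 0.130% of all genes. There the called genes Zfp991 and Zfp979 turned in the plain series, with 10.1% and 25.9% at day 1, against 0% and 0% in the ground state.

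The Ifi200 cluster on chromosome 1 encodes interferon-inducible proteins, several of them sensors of DNA. Its 13 genes averaged 3.38% at day 1 and 6.62% in the ground state in the M series, and 32.9% at day 1 and 55.7% in the ground state in the plain series. Of these genes, 4 were lower at day 1 in both series, against 4.38% of all genes, and 2 were called, against 0.521%. None was higher in both, against 15.5% of all genes. At 28.5 Mb per list 2 were lower in both series, and the same count was called, against 1.66% and 0.130% of all genes. Ifi202b was covered over 19.8% and 22.7% in the M and plain day 1 lists, against 42.0% and 73.2% in the M and plain ground-state lists. Ifi203 had 10.7% and 38.4% at day 1, against 25.0% and 80.8% in the ground state. These clusters were picked after their values were seen, and reads of near-identical copies could be split among them, so values for single copies are uncertain. Most members of both clusters were not called.

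Gene bodies were scored by the share of their length in peaks, and a gene was called when that share differed by at least 10 percentage points in the same direction in both series, with equal length within each series. This is a rule of size with no test. Of 21513 protein-coding genes of at least 500 bp, 237 (1.10%) were higher at day 1 and 112 (0.521%) were lower. More genes passed 10 points in opposite directions than in the same one, 731 against 349. Without the plain series the M lists gave 537 higher and 906 lower genes, and without the M series the plain lists gave 10515 higher and 3984 lower.

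**Figure D2:**
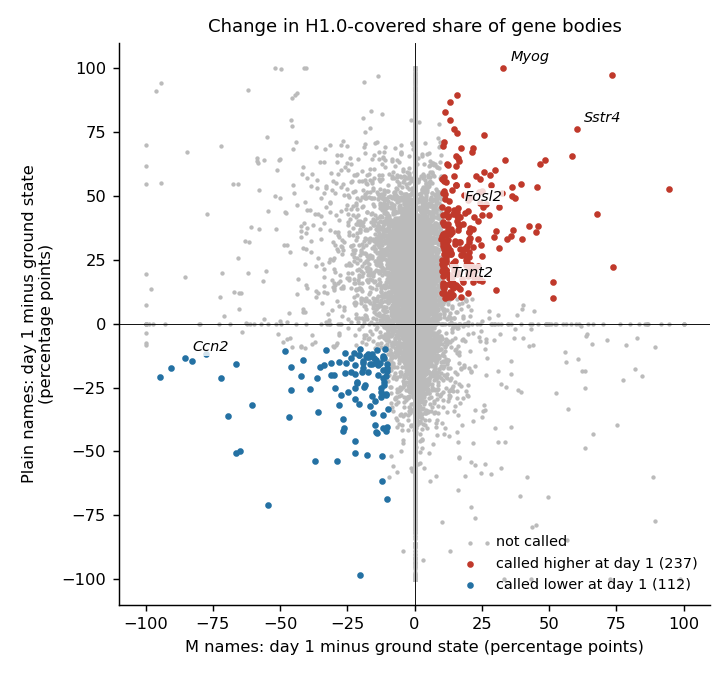
Change in the H1.0-covered share of each gene body, day 1 minus ground state in percentage points, in the M series (horizontal) and the plain series (vertical), with equal covered length within each series; each point is 1 of 21513 genes. The 237 genes called higher and 112 called lower lie in opposite corners, and 731 genes lie at least 10 points out in the other corners.

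Among the genes called higher, the largest changes by the smaller of the series differences were mostly in small receptor genes. The score is a share of body length, so a single peak can fill a short gene and the ranking favours short genes. The median body was 5972 bp for genes called higher and 5719.5 bp for genes called lower, against 17491 bp for all genes. Olfactory receptors as a list were not called higher more often than all genes, at 6 of 1110 against 1.10%. The first was the olfactory receptor gene Olfr1388, covered over 73.4% and 100% in the M and plain day 1 lists, against 0% and 2.7% in the ground-state lists. Sstr4, a somatostatin receptor, had 60.4% and 92.4% at day 1, against 0% and 16.1% in the ground state. S1pr4, a sphingosine-1-phosphate receptor, had 45.5% and 53.5% at day 1, against 0% and 0% in the ground state. By the rule of the calls, the day 1 values of all of these lay above the ground-state values in each series. The other 7 were Olfr527, Olfr1564, Olfr331, the receptor gene Gpr182, Crp, which encodes C-reactive protein, and the predicted genes Gm46340 and Gm15455. Full-length ground-state lists covered Gpr182 over 52.8% and S1pr4 over 52.2% in the plain series, so their absence there holds only after reduction. In full lists S1pr4, Gm15455 and Gm46340 were no longer called. Gm15455 then had 54.6% at day 1 and 48.5% in the ground state in the plain series, and Gm46340 turned in the M series, with 46.5% at day 1 and 78.3% in the ground state. At 28.5 Mb Sstr4 alone of the 10 was called.

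The 10 genes with the largest decreases included keratin-associated protein genes, which lie in multi-copy clusters, and predicted genes. Krtap10-10, a keratin-associated protein gene, had 0% and 50.3% in the M and plain day 1 lists, against 64.8% and 100% in the ground-state lists. Rrs1, which acts in ribosome assembly, had 0% and 48.5% at day 1, against 60.3% and 80.2% in the ground state. Znhit3 had 0% and 35.2% at day 1, against 29.0% and 88.9% in the ground state. The other 7 were Gm52241, Gm8127, Gm11127, Gm52042, Izumo4, Krtap4-7 and the immune receptor gene Cd300c. In full lists all 10 were still called lower. That outcome was fixed, since equal length within each series had shortened the ground-state lists alone. None was called at 28.5 Mb per list. There the plain series turned for Rrs1, with 47.4% at day 1 and 0% in the ground state, for Gm8127, with 39.0% at day 1 and 0% in the ground state, and for Znhit3, with 13.6% at day 1 and 0% in the ground state. Cd300c had 8.4% at day 1 and 0% in the ground state there.

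The counts depended on list length. Full lists gave 102 genes higher (0.474%) and 608 lower (2.83%), and lists of 28.5 Mb gave 54 higher (0.251%) and 28 lower (0.130%). Only 6 genes higher and 16 lower at day 1 were called in all 3 versions. They were named for this after their values were seen. For the lower genes the full lists add nothing, since a lower call at equal length within each series cannot be lost in them. The M lists were already at 28.5 Mb under that rule, so only the plain series could change at that length. The 6 were Csf2, Sstr4, Mfsd10, Spr, Muc6 and Apeh. Csf2, which encodes the cytokine GM-CSF, was covered over 56.0% and 84.6% in the M and plain day 1 lists, against 39.4% and 52.7% in the ground-state lists. Apeh, a peptidase gene, had 24.4% and 47.4% at day 1, against 0% and 0.3% in the ground state. Spr, whose product completes tetrahydrobiopterin synthesis, had 10.4% and 31.7% at day 1, against 0% and 17.2% in the ground state.

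The 16 included the fibroblast gene Ccn2. Ccn2 (chromosome 10, 24595442 to 24598683), a matricellular protein gene and a known target of TGF-beta and YAP, was covered over 0% and 86.4% in the M and plain day 1 lists, against 85.3% and 100% in the ground-state lists. At 28.5 Mb it was at 0% in both day 1 lists, and at 85.3% and 100% in the ground-state lists. Mad2l1, of the spindle checkpoint, had 11.7% and 81.3% at day 1, against 35.5% and 100% in the ground state. Manf, an endoplasmic reticulum stress factor, had 0% and 42.0% at day 1, against 12.2% and 93.8% in the ground state. Rag2, of V(D)J recombination, had 0% and 25.0% at day 1, against 10.0% and 58.4% in the ground state. The remaining 12 were Rps27l, Lipt1, Tmem60, Ifi203, Ifi202b, Zfp980, Zfp982, Dynlt1b, Krtap1-4, Gm7030, Gm40365 and 9130008F23Rik.

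Few cardiac genes were called, and lists of this size cannot separate such counts from the share of all genes. In the sarcomere list, 1 of 30 genes was called higher at day 1 and 0 lower, against 1.10% and 0.521% of all genes. That gene was Tnnt2, cardiac troponin T, with 11.1% and 76.6% in the M and plain day 1 lists, against 0% and 61.0% in the ground-state lists. Full lists undid the call, since the M ground-state list then covered 26.7% of Tnnt2. The list's median share was 1.35% at day 1 and 0% in the ground state in the M series, and 58.1% at day 1 and 37.6% in the ground state in the plain series. All genes had medians of 0% at day 1 and 0% in the ground state in the M series, and 42.0% at day 1 and 25.1% in the ground state in the plain series. None of 21 cardiac transcription factor and natriuretic genes and none of 16 calcium handling and ion channel genes was called.

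The genes named in the design were not called either. Myh6, the alpha myosin heavy chain whose promoter drives the reporter, went opposite ways, with 5.0% and 59.2% in the M and plain day 1 lists, against 13.8% and 13.3% in the ground-state lists. Gata4 had 1.9% and 37.5% at day 1, against 0% and 12.1% in the ground state. Mef2c had 0.8% and 19.4% at day 1, against 0% and 26.2% in the ground state. Tbx5 had 3.0% and 36.0% at day 1, against 0% and 38.7% in the ground state. H1f0, the gene of H1.0 itself, was at 0% in the M lists of both states, and at 64.0% at day 1 and 100% in the ground state in the plain series. Junb was at 0% in every list.

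Fibroblast and matrix genes gave 0 of 27 higher and 1 lower, Ccn2, against 1.10% of all genes higher and 0.521% lower. Single calls in lists of this size are not read as a result. The fibroblast and matrix median in the plain series was 44.9% at day 1 and 27.4% in the ground state, against 42.0% and 25.1% for all genes. In the M series the median was 1.30% at day 1 and 0% in the ground state, while the mean was 2.53% and 4.56%. That ground-state mean rests in large part on Ccn2, which had 85.3% there and 0% at day 1. The AP-1 family, whose dimers bind fibroblast enhancers, gave 1 of 13 higher and none lower. This was Fosl2, with 24.1% and 82.0% in the M and plain day 1 lists, against 7.9% and 36.7% in the ground-state lists. Full and fully reduced lists both lost this call. Among skeletal muscle genes 1 of 14 was called, Myog, the myogenic factor myogenin, with 32.9% and 100% at day 1, against 0% and 0% in the ground state. Myog too was lost in full lists, where the ground state reached 52.7% and 49.1%.

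Counts for the short histone gene lists are not read as a result. Of all genes, 1.10% were called higher and 0.521% lower. Of 9 linker histone genes, the oocyte gene H1f8 was called higher, with 16.4% and 63.8% in the M and plain day 1 lists, against 0% and 0% in the ground-state lists, and none was lower. Full lists lost this call, with 22.9% of H1f8 covered in the M and 24.9% in the plain ground-state list. None of 23 core histone genes was called. With equal length within each series they averaged 8.06% at day 1 and 0.260% in the ground state in the M series, and 70.3% at day 1 and 71.1% in the ground state in the plain series. At 28.5 Mb the plain series had a mean of 13.3% at day 1 and 0% in the ground state, again with no gene called. In full lists the M series turned, with a mean of 8.06% at day 1 and 11.9% in the ground state. The plain series had 70.3% at day 1 and 73.1% in the ground state there. In those lists 3 core histone genes were called lower, against 2.83% of all genes.

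Other lists served as lists of genes not tied to the heart. No gene was called among 15 housekeeping, 16 cell cycle, 12 neuronal, 9 hepatocyte, 10 blood and immune, 8 endothelial and 39 Hox genes. Housekeeping genes had a plain-series median of 37.4% at day 1 and 12.4% in the ground state, against 42.0% and 25.1% for all genes. Olfactory receptors had 60.9% at day 1 and 91.6% in the ground state there. In the M series these medians were 0%, and the means of both lists went the other way. Housekeeping genes averaged 0.765% at day 1 and 3.29% in the ground state, and olfactory receptors 2.60% and 1.27%. Against 1.10% of all genes called higher and 0.521% lower, 6 of 1110 olfactory receptors were higher and 4 lower, 1 of 353 vomeronasal receptors was higher and 1 lower, and 0 of 397 zinc finger genes were higher and 4 lower. Full lists, with 0.474% of all genes higher and 2.83% lower, gave 6 higher and 33 lower olfactory receptors, 1 higher and 6 lower vomeronasal receptors, and 0 higher and 17 lower zinc finger genes. The 4 zinc finger genes were Zfp991, Zfp979, Zfp982 and Zfp980, all of the chromosome 4 cluster. Of 97 genes taken by ribosomal protein prefixes, Rpl21 and the kinase gene Rps6kb2 were higher and Rps27l was lower. Of 57 protocadherins 1 was higher, Pcdhb21, of 49 keratins 1, Krt81, and of 71 defensins 1, Defb20. Of 51 keratin-associated protein genes 3 were lower. With 0 to 6 genes called per list and direction, nothing particular to a list is read from these counts.

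H1.0 peaks met gene starts more often than the rest of the genome in every list. At 28.5 Mb per list, the share of start sites covered was 2.57 times that of all bins at day 1 and 2.58 times in the ground state in the M series. It was 3.83 times at day 1 and 3.36 times in the ground state in the plain series. Whole promoter windows were held at 1.82% at day 1 and 2.03% in the ground state in the M series, and at 3.83% at day 1 and 3.61% in the ground state in the plain series. CpG-rich windows in the plain series were held at 4.04% at day 1 and 3.70% in the ground state, and other windows at 3.69% at day 1 and 3.54% in the ground state. The M series went the other way. There CpG-rich windows were held at 1.78% at day 1 and 1.97% in the ground state, and other windows at 1.85% and 2.07%. In full lists the plain series turned too. CpG-rich windows had 34.7% at day 1 and 42.2% in the ground state, and other windows 38.3% and 47.0%. Peaks were not set against the IgG samples here, and the part that open chromatin has in this was not tested.

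**Figure D3:**
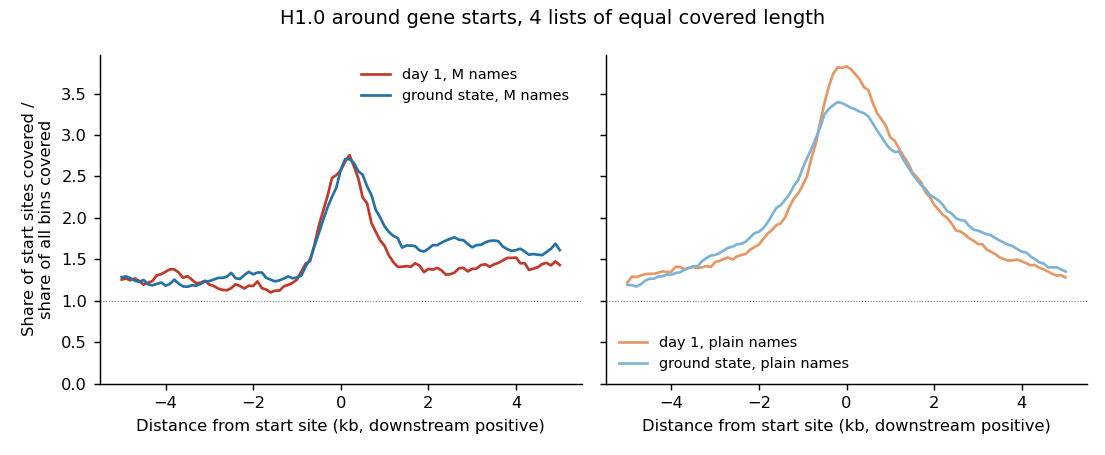
Share of start sites covered by H1.0 divided by the share of all bins covered, by distance from the start (kb), for M lists (left) and plain lists (right), each list reduced to 28.5 Mb. Every list was highest near the start, and at the start itself stood at 2.57 (day 1) and 2.58 (ground state) in the M series and at 3.83 (day 1) and 3.36 (ground state) in the plain series.

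Promoters particular to a state were few. Of 21020 windows, 33 (0.157%) were held whole by both day 1 lists and free of both ground-state lists, and 24 (0.114%) were the other way round. Beside Acta2, the day 1 set held Cxcl1, a chemokine gene, and Mapkapk3, and the ground-state set held Il18, a cytokine gene, Lama2, a laminin gene, and Rps27l. These were named after their values were seen. TGANTCA stood in 4 of 33 day 1 windows and 1 of 24 ground-state windows, against 7.04% of all windows. The MEF2 pattern stood in 0 of 33 day 1 windows and 2 of 24 ground-state windows, against 2.61% of all.

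Gene-rich and gene-poor sequence behaved differently in the series. In bins of 500 kb without a gene start, coverage was 0.423% at day 1 and 0.357% in the ground state in the M series, but 24.1% at day 1 and 30.5% in the ground state in the plain series. In bins with 12 or more starts it was 1.74% at day 1 and 1.87% in the ground state in the M series, but 42.8% at day 1 and 32.3% in the ground state in the plain series. So day 1 was flatter than the ground state across gene density in the M series and steeper in the plain series. The plain ground-state list stood apart from the rest: at equal length its coverage had a Spearman correlation with gene starts of 0.0629 over 5131 bins, against 0.487 for the M day 1, 0.291 for the plain day 1 and 0.419 for the M ground-state list. Bins of 1 chromosome are not independent, and the lists share the gene map.

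**Figure D4:**
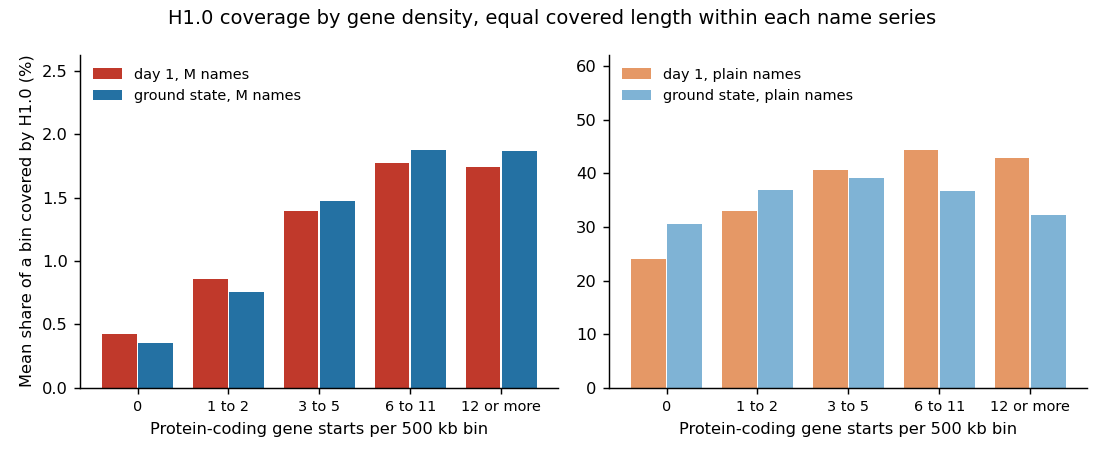
Mean share of 500 kb bins covered by H1.0 (%), by number of protein-coding gene starts in the bin, with equal covered length within each series; bars are day 1 (left of each pair) and ground state (right). The M lists and the plain day 1 list covered more of the bins with 12 or more starts than of those without a start, while the plain ground-state list had 30.5% in bins without a gene start and 32.3% in bins with 12 or more.

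The same split showed in shares of covered sequence at 28.5 Mb. Gene bodies made up 51.5% at day 1 and 54.2% in the ground state in the M series, but 50.03% at day 1 and 42.4% in the ground state in the plain series, while they make up 40.02% of all bins. Sequence within 5 kb of a gene end made up 18.7% at day 1 and 21.4% in the ground state in the M series, and 20.7% at day 1 and 19.7% in the ground state in the plain series. The X chromosome made up 1.88% at day 1 and 1.47% in the ground state in the M series, and 1.44% at day 1 and 2.10% in the ground state in the plain series, far under its 6.53% of all bins. Exact two-sided permutation tests over the 4 samples gave p of 1, 0.667 and 0.667 for these 3 shares.

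Chromosomes held unlike amounts of H1.0 in all 4 lists. With equal length within each series, the plain lists covered 18.3% (X) to 50.3% (chromosome 10) at day 1 and 17.8% (chromosome 14) to 58.0% (chromosome 10) in the ground state. In the M lists the range was 0.317% to 2.07% at day 1 and 0.248% to 2.67% in the ground state. Of the 20 chromosomes, 3 were lower at day 1 in both series and 6 higher in both. In full lists all 20 were lower at day 1 in both series, where both day 1 lists were also shorter.

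**Figure D5:**
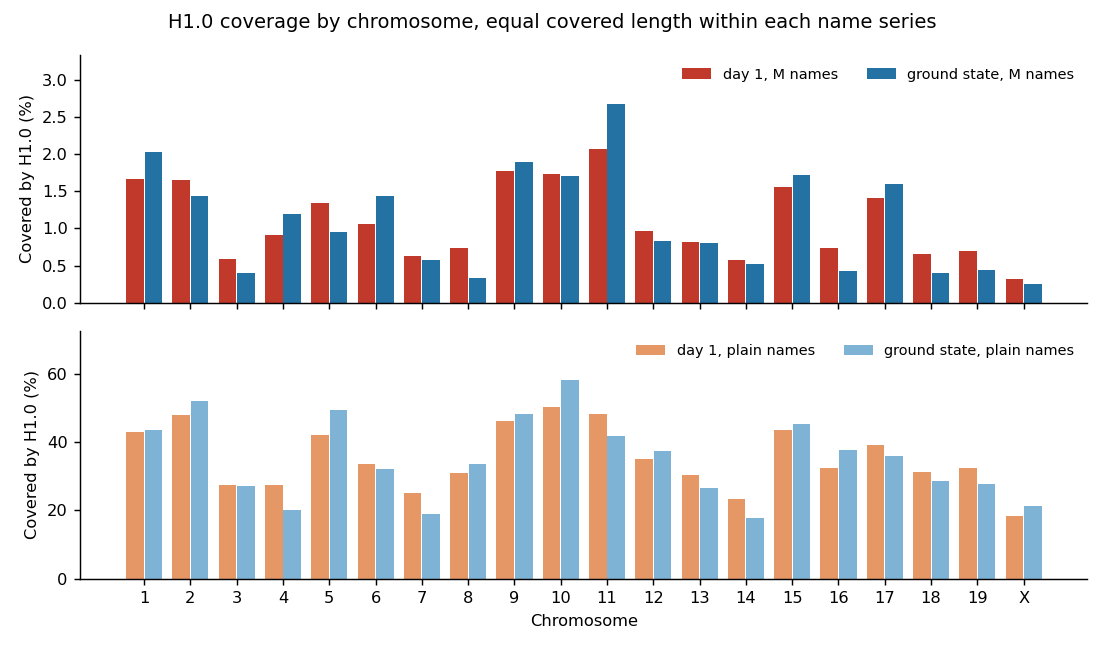
Share of each chromosome covered by H1.0 (%), M lists above and plain lists below, with equal covered length within each series; bars are day 1 (left of each pair) and ground state (right). Chromosome 10 was the most covered in both plain lists (50.3% at day 1 and 58.0% in the ground state), and the states differed in both directions among chromosomes.

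H1.0 was also set against the other targets of the series. H3K9me3, a mark of heterochromatin, covered more sequence at day 1 in both series, 109 Mb at day 1 and 65.7 Mb in the ground state in the M series and 363 Mb at day 1 and 315 Mb in the ground state in the plain series, the opposite direction to H1.0. For overlap, H3K9me3 of a state was the sequence held by both of its H3K9me3 lists. That sequence makes up 3.72% of all bins at day 1 and 2.42% in the ground state. With all H1.0 lists reduced to the same length, its share of H1.0 sequence depended on the series. It was 6.13% at day 1 and 6.16% in the ground state in the M series. The plain series had 4.73% at day 1 and 2.81% in the ground state. In full lists the M series had 6.13% at day 1 and 4.18% in the ground state. The plain series then had 3.27% at day 1 and 1.96% in the ground state, below the shares of all bins. The exact permutation p for the share at the same length was 1.

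MEF2C, an induced factor, was mapped at day 1 alone. Its peaks present in both siControl lists covered 12.8 Mb. At 28.5 Mb per list, H1.0 covered 4.78% of it at day 1 and 3.03% in the ground state in the M series, and 10.8% at day 1 and 10.0% in the ground state in the plain series, against 1.11% of all bins. In full lists the direction turned, with 4.78% at day 1 and 8.70% in the ground state in the M series, and 70.1% at day 1 and 75.3% in the ground state in the plain series.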

How the data were processed

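H1.0 CUT&RUN was measured in 4 samples, 2 at day 1 and 2 in the ground state. The submitters' processing notes name Bowtie2, SEACR and the build mm10, with versions and the handling of IgG, duplicates and multi-mapping reads not given in the sources used here. Labelled depth was 30 M reads in each sample, with the aligned number unknown, which leaves list length and sample spread as the measures of precision. The deposited values are signal in whole numbers, as a total and a highest value for every peak, with 1 list per sample and no sign of scaling. They were used to rank peaks within a list. No column of per-sample values was left unused.

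Lists were used in full, reduced by maximum signal to the shorter list within each name series (28.5 Mb in the M series, 911 Mb in the plain series; used for genes), and all reduced to 28.5 Mb (used for shares, shared sequence and promoters). Bins were 500 kb wide from 3 Mb on. Genes and 300 bp promoter windows came from RefSeq tables of GRCm38.p6, which matched 17251 genes with a window. CpG-rich windows had at least 55% GC and an observed over expected CpG of at least 0.6. Whole-list measures were compared by exact two-sided permutation over the samples, which cannot go below p = 0.33.

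Members and lists were chosen with earlier results of these data known. Named were the 10 called genes with the largest smaller change in each direction, up to 5 called genes per list, the genes of the design, and the 5 strongest regions per state. Work used Python 3.11.15, numpy 2.4.6, pandas 2.3.3 and matplotlib 3.10.9, and was tested on simulated data. Alternatives were other rankings, thresholds and list lengths, left-out replicates, the replicate block and single name series. Same-numbered samples deviated in opposite ways (r = -0.372 over bins at equal length). They always came from different name series, so this r cannot show whether the numbers mark biological pairs. Peaks on Y and unplaced scaffolds, and IgG samples, were left out.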

Additional observations from a re-analysis of the deposited data

Results flagged for a closer look

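The change in peak number ran opposite ways in the name series, with day 1 minus ground state at -52788 peaks in the M series and 309352 in the plain series, and this difference was not tested. The share of covered sequence in gene bodies changed by -2.64 percentage points in the M series and by 7.67 in the plain series, likewise untested. The share on the X chromosome changed by 0.411 points in the M series and by -0.661 in the plain series, also untested. Peaks outside the chromosomes used, on Y and unplaced scaffolds, numbered 255 at day 1 and 261 in the ground state in the M series, and 764 at day 1 and 471 in the ground state in the plain series.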

How the results depend on the processing

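With 2 samples per state and list sizes that differ by series, depth and list length limit most values, and no whole-list test could pass 0.05. Median width stayed lower at day 1 under every alternative run, with differences of -984.5 to -104.5 bp when a replicate was left out. Leaving out 1 replicate moved the difference in covered length between -639.5 and 376.7 Mb and in peak number between -216282 and 472846, and the single M series gave -52788 peaks. The gene-body share ran from -3.40 to 8.42 points without a replicate, the share near gene ends from -1.84 to 0.187, the share in H3K9me3 from -0.734 to 2.62 and the share on X from -0.445 to 0.195. Without ground state replicate 2, which stood apart, the gene-body share was -3.40, the H3K9me3 share -0.734 and the X share 0.195 points. The share near gene ends was 0.596 in full lists and 0.902 when ranked by total signal, against -0.825.

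Sequence of both day 1 lists alone (1.13 Mb) and of both ground-state lists alone (0.511 Mb) became 4.02 and 15.0 Mb in full lists, 5.55 and 3.07 Mb at equal length within each series, and 0.492 and 0.224 Mb at 0.5 of that length. Leaving out a replicate gave 1.62 to 24.0 Mb for day 1 and 0.647 to 23.0 Mb for the ground state, as fewer lists must hold or lack the sequence. Genes higher and lower (237 and 112) became 102 and 608 in full lists, 54 and 28 at 28.5 Mb, 762 and 254 at 5 points and 64 and 30 at 20 points. With 5 kb added on each side, 76 were higher and 78 lower, so the excess of higher genes was gone. Leaving out a replicate left 1 series, with 537 to 10515 higher and 906 to 3984 lower.

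With the replicate block on equal numbers, whose correlation was under -0.1, sequence was 2.81 Mb for day 1 and 0.972 Mb for the ground state, and 174 genes were higher and 42 lower. The block left the differences themselves as they were, with p = 0.5 for median width and p = 1 for covered length and peak number, where 2 pairs cannot go below 0.5 in an exact test. The crossed pairing, considered after seeing the data, is that of the name series, with 237 higher and 112 lower. Where a value moved, the cause was not tested beyond the number of lists or the list length.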

Other observations

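At the scale of 500 kb bins and equal length, the M lists of day 1 and ground state were most alike, with a Spearman correlation of 0.743 over 5131 bins. The day 1 lists of the M and plain series had 0.578, the plain lists of day 1 and ground state 0.515, and the ground-state lists of the M and plain series 0.177. The differences between day 1 and ground state in the M and plain series had a correlation of -0.109. Bins where both series had more H1.0 at day 1 included 126500001 to 127000000 on chromosome 2, around the histidine decarboxylase gene Hdc and the ion channel gene Trpm7. It was covered over 4.20% at day 1 and 1.35% in the ground state in the M series, and over 20.2% at day 1 and 2.14% in the ground state in the plain series. A bin at 53500001 to 54000000 on chromosome 11, with the cytokine genes Il4, Il13 and Il5, went the other way, with 3.39% at day 1 and 5.66% in the ground state in the M series, and 1.96% at day 1 and 4.23% in the ground state in the plain series.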
